A study of Mus musculus with 38 samples.

Results

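Epiblast-like cells (EpiLCs) without the lamin B receptor (LBRKO) were compared directly with EpiLCs without the lamins (TKO) for where the inner nuclear membrane protein LAP2B touches the genome. The members are the 3 LBRKO and the 3 TKO EpiLC libraries of LAP2B CUT&RUN, 6 of the 38 samples in the series. They were taken by genotype and stage from the sample labels, so that the comparison of both tethers needs no wild-type (WT) control. EpiLCs are cultured mouse cells that model the epiblast as it leaves naive pluripotency. They were made from naive mouse embryonic stem cells (mESCs) kept in serum-free medium with MEK and GSK3 inhibitors and LIF, by growth for 48 h with FGF at 20 ng/mL and activin A at 12 ng/mL. In CUT&RUN, a nuclease tethered to an antibody releases the DNA that lies next to the antibody's target. Each replicate held 200000 cells, and 0.3 pg of yeast DNA was added as a spike-in by which libraries can be scaled. LAP2B in WT EpiLCs and in EpiLCs without the lamins and the receptor (QKO), and LMNB1 and non-specific immunoglobulin (IGG) in WT EpiLCs, served as reference levels, with 3 libraries each.

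LBRKO cells carry frameshift indels in Lbr made in the WT mESCs, and several clones were obtained. Which clone these libraries came from is not given in the sources used here. TKO cells lack lamin A/C, lamin B1 and lamin B2, and come from a littermate line of the WT cells, so the groups differ in line history as well as in genotype. The TKO line has an extra copy of chromosome 8 and part of it has lost the Y chromosome. A minority of the WT line, the parent of LBRKO, has extra copies of chromosomes 6 and 8 and has lost the Y chromosome. The chromosome content of the LBRKO line is not given in the sources used here. IGG was mapped in WT cells only, so more LAP2B and more copies of a region cannot be told apart in either mutant. The antibody binds the LAP2 alpha and beta forms, with preference for beta. LAP2B in WT EpiLCs also lies outside the domains bound by LMNB1, so a LAP2B level in EpiLCs is not by itself a level of lamina contact. Nothing in the labels says that the 3 replicates of a group were separate cultures, and p-values then measure only the spread between these samples, which may be technical.

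The nuclear lamina is a meshwork of A-type and B-type lamins beneath the inner nuclear membrane, and the chromatin that touches it forms lamina-associated domains, which are long, AT-rich, gene-poor and mostly silent. LBR is a membrane protein with a chromatin-binding tail and a sterol reductase domain, and it is best known as the tether of peripheral heterochromatin early in development, before lamin A/C takes a larger share of that role. LAP2B, made from Tmpo, is a LEM-domain membrane protein that binds lamins and chromatin and can report on DNA at the periphery when the lamins themselves are gone.

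Summed over all genes, the recovered reads numbered 32980706, 29345236 and 30156463 in the LBRKO libraries and to 20179766, 29607228 and 33084955 in the TKO libraries, with a median of 63 to 98 reads per gene. Replicates of a group differed by 3.36 to 4.06 times counting error (chi-square per degree of freedom, 6 pairs), so no pair agreed within sampling noise. Values are used on 2 scales. On the spike-in scale they are the deposited values, which are RPKM summed over the 1 kb bins that a gene touches, multiplied by the spike-in factor. On the relative scale each library is divided by its median gene, which takes out the total level. Both grow with gene length, so genes are compared with one another only per bin. A read in a bin shared by neighbouring genes counts for each of them. The reads are genomic DNA, so the values over Lbr and the lamin genes do not test the knockouts. Over Lbr the relative value was 5.47, 6.99 and 6.20 in LBRKO and 6.02, 7.07 and 6.52 in TKO (log2 difference −0.07, limma adjusted p = 0.735).

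On the spike-in scale the mean LAP2B value per gene was 13.98, 14.02 and 15.12 in the LBRKO libraries and 14.54, 9.96 and 8.23 in the TKO libraries. TKO replicate 1 stood with the LBRKO libraries, and the other 2 TKO libraries lay below all 3 of them. The means were 14.4 ± 0.644 (SD, n = 3) and 10.9 ± 3.26 (SD, n = 3), a ratio of 1.32. WT EpiLCs had 13.8 ± 2.72, QKO EpiLCs 6.83 ± 0.357 and the IGG background 5.44 ± 3.01 (SD, n = 3 each). On the log2 scale, over the genes tested, the groups differed by 0.44, which a two-sided exact permutation test did not separate (p = 0.3, adjusted over 4 measures 0.3). For 3 libraries against 3 the smallest two-sided p is 0.1. Without TKO replicate 1 the difference was 0.67 and without TKO replicate 3 it was 0.26, so the size of the gap rests on single TKO libraries.

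The genotypes overlapped in the level of LAP2B, and did not overlap in 3 summary measures of its place along the genome. Genes were parted into 4 classes of equal size by WT LMNB1 per bin, and the lamina contrast is the log2 ratio of a library's mean value per bin in the top class to its mean in the lowest. It was 0.77, 0.76 and 0.69 in LBRKO and 0.34, 0.31 and 0.28 in TKO. All 3 LBRKO libraries lay above all 3 TKO libraries, by 0.43 on average (exact permutation p = 0.1, the smallest possible, adjusted over 4 measures 0.133). The WT libraries averaged 0.90 ± 0.17, the WT IGG libraries 0.26 ± 0.05 and the QKO libraries 0.15 ± 0.02 (SD, n = 3 each). The LBRKO values thus lay between 0.69 and 0.77, within or just under the WT range of 0.75 to 1.09, and the TKO values between 0.28 and 0.34, close to the IGG range of 0.21 to 0.31.

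Each library was also ranked gene by gene against mean WT LMNB1 and against mean WT IGG, both per bin. Spearman's rank correlation with LMNB1 was 0.353, 0.346 and 0.316 in LBRKO and 0.109, 0.102 and 0.108 in TKO, a difference of 0.232. The rank correlation with IGG was 0.461, 0.455 and 0.516 in LBRKO and 0.701, 0.727 and 0.707 in TKO, a difference of −0.234. The groups did not overlap in either measure, and each exact permutation p was 0.1 (adjusted over 4 measures 0.133). Relative to WT, where the correlation with LMNB1 was 0.510 to 0.690, both mutants ranked genes less like LMNB1, and TKO less so than LBRKO. The gap is a matter of values per bin. When values were not divided by the number of bins, so that gene length dominates the ranks, it shrank to 0.0085 for LMNB1 and −0.024 for IGG, and the lamina contrast gap to 0.22.

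**Figure D1:**
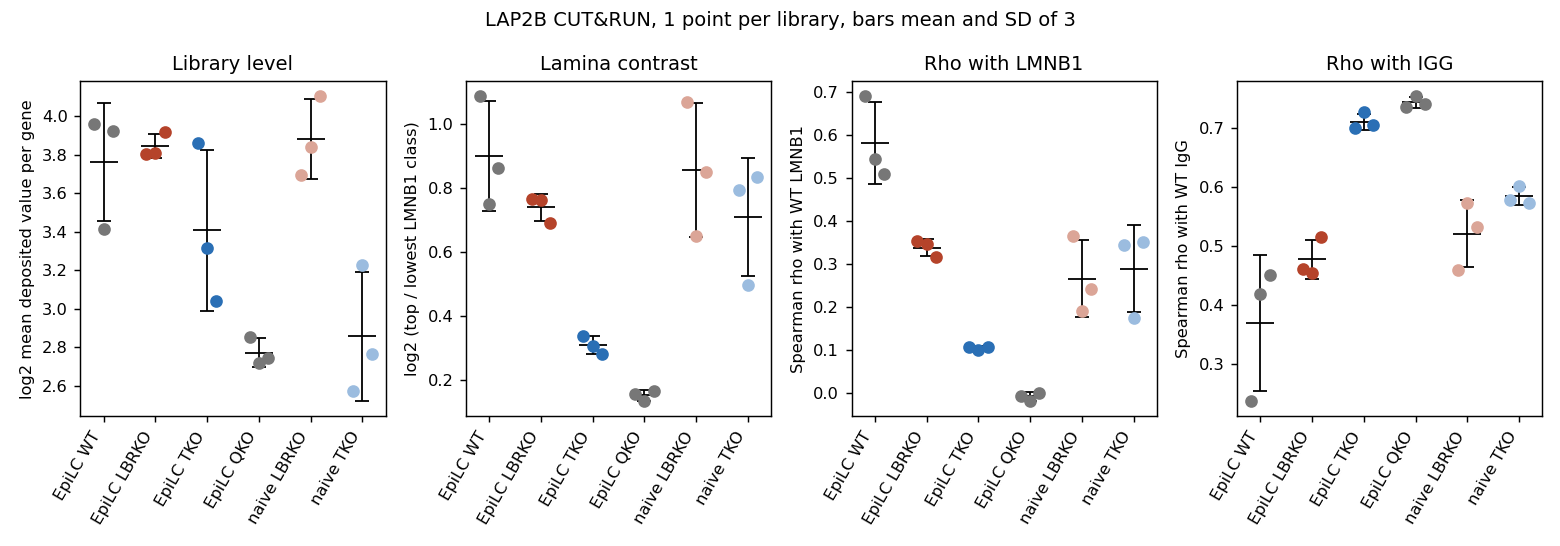
LAP2B measures by library (y axes: log2 of the mean value per gene on the spike-in scale, log2 lamina contrast, and Spearman's rank correlation with WT LMNB1 and with WT IGG, both without units), with 1 point per library and bars for the mean and SD of 3. The LBRKO libraries sit at 0.69 to 0.77 in lamina contrast and at 0.316 to 0.353 in rank correlation with LMNB1, above the TKO libraries at 0.28 to 0.34 and 0.102 to 0.109, whereas the levels of both groups overlap.

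Gene by gene on the relative scale, 17506 of 70382 genes differed between LBRKO and TKO EpiLCs (24.9%, limma, Benjamini-Hochberg adjusted p under 0.05). LAP2B was higher in LBRKO over 9830 genes (14.0%) and higher in TKO over 7676 genes (10.9%). The median difference was 0.74 among the former and −0.59 among the latter (log2), and a difference of 2-fold or more was reached by 2091 genes higher in LBRKO and 448 higher in TKO. Of the 20852 protein-coding genes tested, 4345 were higher in LBRKO and 3990 higher in TKO. The 3 libraries of one group lay wholly above the 3 of the other for 9638 and 7449 of the called genes, against 45.2% of all genes tested. Which direction holds more genes depends on the scaling. With libraries divided by their mean in place of their median, 7375 genes were higher in LBRKO and 12553 in TKO, as the median difference moved from −0.04 to −0.15. On the spike-in scale 10934 genes were called (15.5%), 10719 higher in LBRKO (15.2%) and 215 higher in TKO (0.305%), around a median difference of 0.24. That count was 18628 without TKO replicate 1, 6619 without TKO replicate 2, 5144 without TKO replicate 3 and 6924 without LBRKO replicate 3.

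Genes with most LMNB1 in WT cells were those most often higher in LBRKO. In the top LMNB1 class of 17579 genes, 22.5% were higher in LBRKO and 4.11% higher in TKO, with a median difference of 0.20 (log2, relative scale). In the lowest class of 17578 genes the order was turned, with 6.66% higher in LBRKO, 17% higher in TKO and a median of −0.20. The classes between them gave medians of −0.11 and 0.0014. The medians of the top and lowest class were 0.47 and 0.067 on the spike-in scale, so the order held and the sign of the lowest class did not. The mean value per bin, set to 1 for the median of each library, was 1.38 ± 0.033 in LBRKO, 1.15 ± 0.034 in TKO and 1.44 ± 0.107 in WT for the top class (SD, n = 3 each). For the lowest class it was 0.826 ± 0.005, 0.925 ± 0.009 and 0.771 ± 0.036. TKO thus had the flatter profile, from 0.925 to 1.15, whereas LBRKO ran from 0.826 to 1.38.

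Base composition ordered the genes in the same manner. With genes parted into 5 classes of equal size by GC content, of the lowest class, under 40.7%, 23.0% were higher in LBRKO and 6.67% higher in TKO. Of the highest class, over 50.5%, 5.28% were higher in LBRKO and 17.4% higher in TKO, and the medians of these classes were 0.12 and −0.24 (0.40 and 0.023 on the spike-in scale). GC content and LMNB1 were then crossed. Among genes of the top LMNB1 class, 28.0% were higher in LBRKO in the lowest GC class (6476 genes, median 0.23) and 12.9% in the highest (3000 genes, median 0.08). Among genes of the lowest LMNB1 class, 13.8% were higher in LBRKO and 9.13% in TKO in the lowest GC class (median −0.08), against 1.81% and 23.0% in the highest (median −0.34). The difference varied with each feature at a fixed level of the other. Across 70313 genes, Spearman's rank correlation of the difference was 0.294 with LMNB1 per bin, −0.257 with GC content, −0.157 with IGG per bin and 0.011 with length. Genes are not independent replicates, and these values share the libraries and the base composition of the reads.

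**Figure D2:**
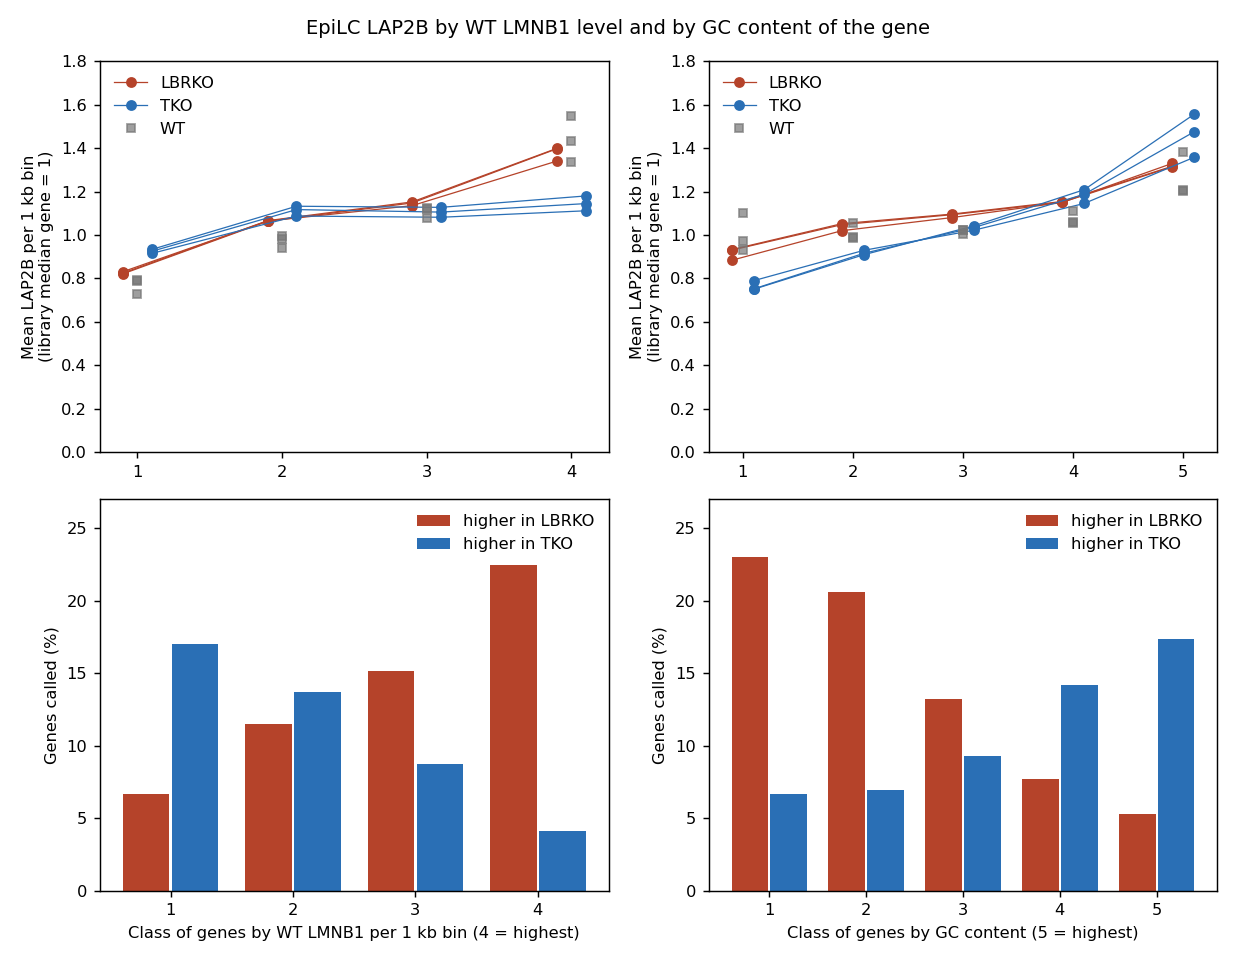
Upper panels, mean LAP2B per 1 kb bin (median gene of each library = 1) by class of WT LMNB1 (4 classes) and of GC content (5 classes), 1 line per LBRKO or TKO library and grey squares for WT. Lower panels, percent of genes called in each direction. The LBRKO lines rise from 0.826 to 1.38 over the LMNB1 classes and the TKO lines from 0.925 to 1.15, and the share of genes higher in LBRKO runs from 6.66% to 22.5%.

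Chromosome 6 stood apart from the rest. Of its 4092 tested genes, 1664 (40.7%) were higher in LBRKO and 4 (0.098%) higher in TKO, with a median difference of 0.46. It held 5.81% of the tested genes and 16.9% of those called higher in LBRKO. All 30 windows of 5 Mb on chromosome 6 had a median above 0, and the naive mESCs of the same genotypes gave a chromosome median of 0.48. Chromosome X followed with 0.12, and the lowest medians were −0.27 on Y and −0.21 on chromosomes 17 and 4. On Y, 62 of 913 genes were higher in TKO (6.79%, under the 10.9% of all genes) and 0 in LBRKO. Chromosome 8, the one with an extra copy in the TKO line, had a median of −0.13 and 14.3% of genes higher in TKO. Chromosomes 7, 15 and 19 lay further towards TKO, with medians of −0.18, −0.19 and −0.16 and 18.0%, 14.9% and 14.9% of genes higher in TKO. Because neither mutant has an IGG library, copy number and LAP2B level cannot be told apart on these chromosomes. Outside chromosomes 6, 8, X and Y, 7295 genes were higher in LBRKO and 6851 in TKO, of 59736 tested. The order by LMNB1 was much the same there, with 21.4% higher in LBRKO and 4.01% in TKO in the top class, and 5.15% and 18.8% in the lowest.

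Windows were cut at every 5 Mb from the start of a chromosome, so its last window can be shorter than 5 Mb. Of 551 windows with at least 10 genes, 44 had a median over 0.5, 13 of them on chromosome 6, and 21 had a median under −0.5. The highest was the window from 130 Mb on chromosome 10, with all 11 genes higher in LBRKO and a median of 1.27. It holds the vomeronasal receptor genes Vmn2r84 to Vmn2r87 and Neurod4, a neuronal transcription factor gene. The window from 160 Mb on chromosome X (Nhs, Reps2) had a median of 1.11 over 63 genes, that from 150 Mb on chromosome 5 (Fry, Pds5b, Brca2) 1.09 over 53 genes, and that from 145 Mb on chromosome 6 (Itpr2, Bicd1) 1.08 over 159 genes, 129 of them higher in LBRKO. At the other end, the window from 25 Mb on chromosome X, with the multicopy Slx genes, had a median of −0.87 over 13 genes. The window from 15 Mb on chromosome 7, a gene-dense stretch with a median GC content of 50.2%, had −0.60 over 256 genes, 131 of them higher in TKO. In the 5 highest and the 5 lowest windows, no gene was called against the direction of its window.

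**Figure D3:**
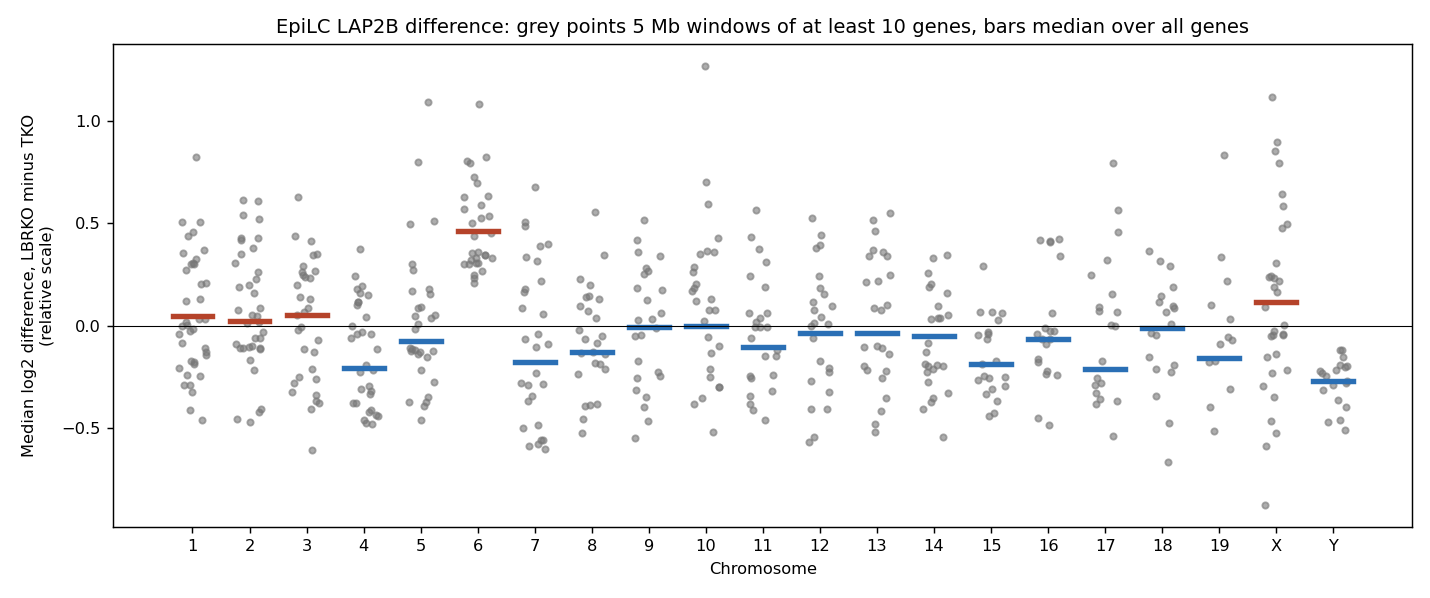
Median log2 difference, LBRKO minus TKO, on the relative scale (y axis) by chromosome (x axis). Grey points are 5 Mb windows of at least 10 genes and bars are medians over all genes of the chromosome. All 30 windows of chromosome 6 lie above 0 and its bar at 0.46, and Y has the lowest bar at −0.27.

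The protein-coding genes of at least 10 kb with the largest differences in favour of LBRKO were long and AT-rich. Their relative LAP2B signal in LBRKO was above that of WT, where LAP2B level and copy number cannot be told apart. Dennd5b, which encodes an exchange factor for Rab GTPases, had relative values of 145, 150 and 135 in LBRKO and 25.8, 26.7 and 27.6 in TKO. Its log2 difference was 2.42 (SE 0.11, limma adjusted p = 5.35e-23), and the WT value was 32.7 ± 3.51 (SD, n = 3). It lies on chromosome 6 (GRCm39 chr6:148889569-149003390), and after the median difference of each chromosome was taken out it still differed by 1.84. Its neighbour Caprin2, an RNA-binding protein gene, had 67.5, 65.4 and 54.3 in LBRKO and 11.3, 10.2 and 13.5 in TKO, a difference of 2.41. For both genes every LBRKO library lay at least 4-fold above every TKO library.

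Outside chromosome 6, Pds5b, which encodes a regulator of cohesin (chr5:150597204-150734177), had 98.2, 99.3 and 88.1 in LBRKO and 24.2, 26.0 and 27.9 in TKO (log2 difference 1.87, SE 0.11, limma adjusted p = 1.17e-18). Lrp6, the Wnt co-receptor gene on chromosome 6, had 90.3, 92.8 and 80.7 against 24.2, 27.1 and 28.1 (1.73). The groups lay far apart for both, with the lowest LBRKO library more than 2-fold above the highest TKO library. The others named by the same rule were Slco1b2 (1.82), a liver anion transporter gene, Cr1l (1.74), a complement regulator gene, Sacm1l (1.73), a phosphoinositide phosphatase gene, Rnf128 (1.72), a ubiquitin ligase gene, Radx (1.71), which acts at stalled replication forks, and Suco (1.71). After centring by chromosome, Calr4 (1.65), Far1 (1.68), a fatty acyl-CoA reductase gene, and Pde3b (1.65), a phosphodiesterase gene, joined the list (values before centring).

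In all 10 of the genes first named, the 3 LBRKO libraries lay above the 3 WT libraries, and in 9 the 3 TKO libraries lay below them, where 20.6% and 17.6% of all genes tested did so. The genes were taken for the size of their difference between LBRKO and TKO, so this is a description. On the relative scale TKO values were near those of WT IGG, at −0.11 to 0.36 (log2), whereas LBRKO values were 1.64 to 2.41 above them. Each library is divided by its own median gene there, so this compares profiles and not amounts of signal. On the spike-in scale the mean value per gene was 10.9 in TKO and 5.44 in WT IGG. Of these 10 genes 8 were in the top LMNB1 class, their GC content was 35.7% to 40.9% and their length 36.3 to 137 kb. All 10 were also higher in LBRKO in naive mESCs, as were 21.5% of all genes (limma, relative scale).

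The genes with the largest differences in favour of TKO were shorter and less strongly separated. Klf16, a GC-rich zinc finger transcription factor gene, had 2.78, 2.48 and 2.29 in LBRKO and 5.70, 5.52 and 4.33 in TKO (log2 difference −1.01, SE 0.16, limma adjusted p = 3.89e-06). Gramd1a, which encodes a sterol transfer protein of the endoplasmic reticulum, had 4.23, 4.05 and 3.79 against 9.35, 7.56 and 7.30 (−0.98). Wtip, a LIM-domain adaptor gene, had 2.96, 3.12 and 3.43 against 6.52, 6.48 and 6.01 (−0.98). In these 3 genes the mean relative values of TKO exceeded those of WT (3.55, 6.08 and 5.18) and of IGG (4.51, 7.13 and 5.96). Those of LBRKO were under both, which on this scale does not place them under the background in amount.

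The rest of this group were Vmn2r121 (−1.16), Mefv (−1.15), which encodes pyrin, Slx (−1.10), Or5bh3 (−1.09), Lgalsl2 (−1.03), Mrgpra3 (−1.02), an itch receptor gene, and Vmn2r31 (−0.98), with Smg5 (−0.98), a nonsense-mediated decay gene, added after chromosome centring. Reads over receptor and Slx copies are shared among near-identical genes and these values are uncertain. The fewest reads in a library were 24 in this group and 413 in the first. In 9 of these 10 genes all LBRKO libraries lay below all WT libraries (17.8% of all genes), and the TKO libraries lay above WT in 3 (19.2% of all genes) and below it in 2. Their GC content ran from 35.4% to 57.7%, and that of Vmn2r121, Slx, Or5bh3, Mrgpra3 and Vmn2r31 was within or under the range of the first group. The relative TKO values differed from those of IGG by −0.31 to 0.51 (log2), and those of LBRKO by −1.58 to −0.69. All 10 stayed lower in LBRKO on the spike-in scale, and 4 of them passed the test there. The difference over Or5bh3 no longer passed the test without LBRKO replicate 2 (−0.88, limma adjusted p = 0.0541) or without TKO replicate 3 (−0.87, limma adjusted p = 0.0538).

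**Figure D4:**
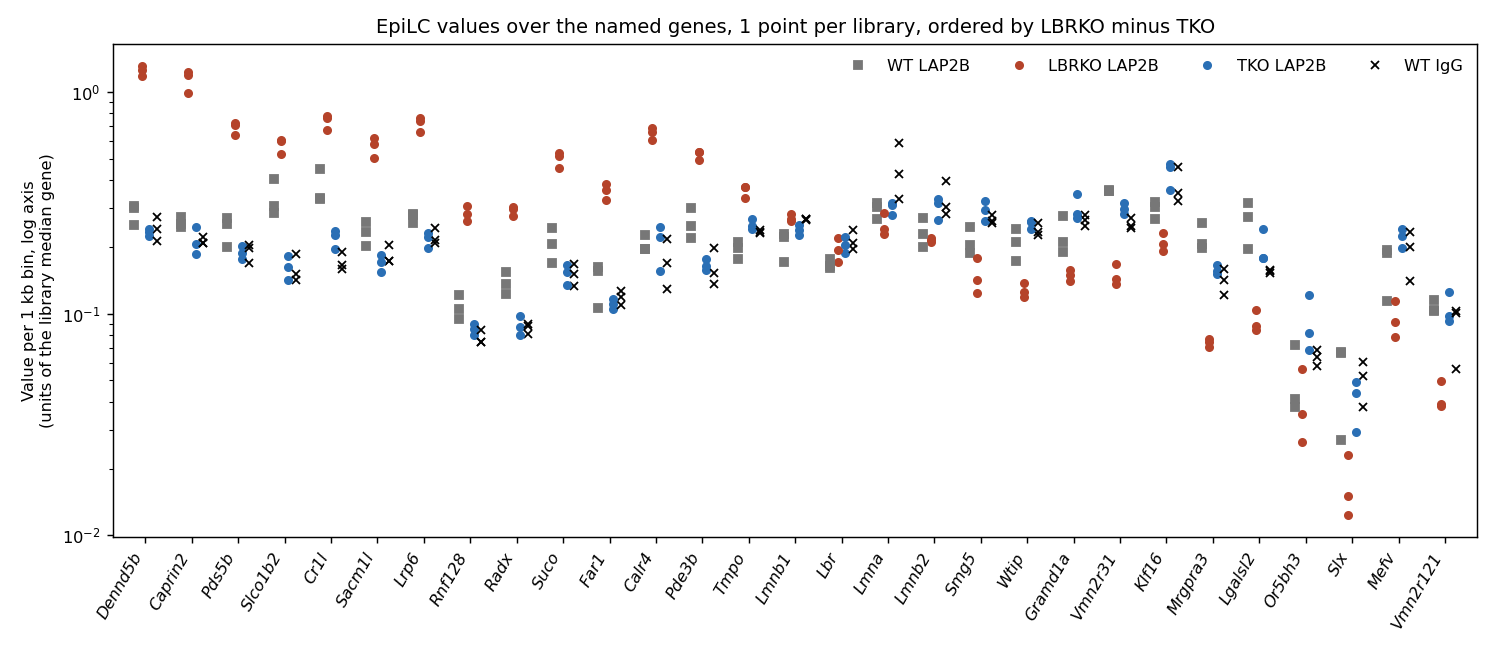
Value per 1 kb bin (log y axis, units of the library's median gene) over the named genes, ordered by LBRKO minus TKO, with 1 point per EpiLC library. On the left the LBRKO points stand above WT and the TKO points lie near the WT IGG crosses, with the widest gap at Dennd5b (2.42, log2). On the right the LBRKO points lie under the TKO points, except over Lbr and Lmna, where both groups overlap.

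To show both ends of the range of base composition, the middle 150 bases are given of the 2 most AT-rich of the 10 genes first named as higher in LBRKO and the 2 most GC-rich of the 10 first named as higher in TKO, from the GRCm39 reference, read 5′ to 3′ along the gene, with G and C in capitals. These 4 genes were picked for their GC content, and the difference between the pairs is no result. All 4 windows are intronic and all 4 genes lie on the minus strand. They are chr1:161674019-161674168 (Suco), chr1:194795673-194795822 (Cr1l), chr10:80408258-80408407 (Klf16) and chr7:30842396-30842545 (Gramd1a).
Suco: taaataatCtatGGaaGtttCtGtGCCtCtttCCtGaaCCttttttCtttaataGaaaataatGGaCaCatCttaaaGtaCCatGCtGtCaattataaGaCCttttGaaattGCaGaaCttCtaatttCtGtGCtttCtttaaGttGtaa
Cr1l: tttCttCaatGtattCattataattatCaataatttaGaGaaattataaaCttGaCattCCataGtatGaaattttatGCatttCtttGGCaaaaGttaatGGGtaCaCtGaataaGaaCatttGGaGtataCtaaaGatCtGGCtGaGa
Klf16: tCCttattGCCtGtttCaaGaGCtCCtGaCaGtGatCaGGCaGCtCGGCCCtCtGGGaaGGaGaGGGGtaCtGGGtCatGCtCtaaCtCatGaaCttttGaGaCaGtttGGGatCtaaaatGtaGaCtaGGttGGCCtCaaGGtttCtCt
Gramd1a: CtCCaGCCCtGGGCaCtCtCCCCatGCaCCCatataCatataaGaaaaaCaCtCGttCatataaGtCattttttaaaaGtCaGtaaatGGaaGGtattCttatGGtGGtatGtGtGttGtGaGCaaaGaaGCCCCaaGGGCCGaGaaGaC
G and C made up 45 and 40 of the 150 bases shown of Suco and Cr1l, and 73 and 65 of those of Klf16 and Gramd1a. Over the whole genes the shares were 35.7%, 37.5%, 57.7% and 52.2%. The window of Suco and that of Cr1l held 0 CG dinucleotides, that of Klf16 1 and that of Gramd1a 2.

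Genes of the nuclear envelope and lamina were called in both directions. Of 27 tested, 9 were higher in LBRKO (33.3%, against 14.0% of all genes and 20.84% of protein-coding genes) and 5 higher in TKO (18.5%, against 10.9% and 19.13%), with a median of 0.02 beside −0.04 for all genes. Nup98, a nuclear pore gene, had 34.7, 36.8 and 32.1 in LBRKO and 18.5, 19.9 and 19.9 in TKO (0.82), and Tor1aip1, which encodes the lamina-binding protein LAP1, differed by 0.80. Lemd2 (−0.75) and Sun2 (−0.68), both genes for inner membrane proteins, were higher in TKO. The list gave 8 and 6 with libraries divided by their mean and 8 and 3 after the median difference of each chromosome was taken out (chromosome centring), where Lemd2 did not pass (limma adjusted p = 0.155). Tmpo itself, which encodes LAP2, had 13.0, 13.0 and 11.6 in LBRKO and 9.38, 8.72 and 8.45 in TKO (0.50, limma adjusted p = 0.00109). Among the deleted lamin genes, Lmnb2 was higher in TKO (−0.47, limma adjusted p = 0.0359), and its call was lost when any library but TKO replicate 3 was left out or with no filter on low values (adjusted p 0.0737 to 0.133). Lmna (−0.26, limma adjusted p = 0.459) and Lmnb1 (0.18, limma adjusted p = 0.269) did not pass.

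Genes for writers and readers of heterochromatin were also split, with 7 of 26 higher in LBRKO (26.9%) and 6 higher in TKO (23.1%), against 14.0% and 10.9% of all genes and 20.84% and 19.13% of protein-coding genes. The same shares apply to the next lists. Setdb2, a SET-domain methyltransferase gene, had 15.0, 15.2 and 12.8 in LBRKO and 6.87, 6.06 and 7.35 in TKO (1.07). Atf7ip, the partner gene of Setdb1, lies on chromosome 6 and differed by 1.07, or by 0.49 after chromosome centring. Ehmt2, which encodes the H3K9 dimethyltransferase G9a, had 3.35, 3.93 and 3.16 against 6.24, 6.26 and 5.47 (−0.77), and Uhrf1, a gene for maintenance DNA methylation, differed by −0.66. Of the 27 genes that act in the germline or in silencing of retrotransposons, 8 were higher in LBRKO (29.6%) and 3 in TKO (11.1%), led by Sycp3 (1.03), a gene of the meiotic chromosome axis, and Morc1 (0.89), against Tdrd1 (−0.50) and Tdrd7 (−0.41). That list gave 7 and 7 with libraries divided by their mean, and 6 and 0 after chromosome centring, where Tdrd1 and Tdrd7 did not pass. Innate sensing and interferon genes gave 7 and 6 of 26 (26.9% and 23.1%), with Eif2ak2 (1.06), the gene of the RNA-sensing kinase PKR, and Mavs (1.05) against Irf3 (−0.78) and Isg15 (−0.78, which did not pass after chromosome centring, limma adjusted p = 0.139). With libraries divided by their mean the heterochromatin list gave 6 and 10 and the innate sensing list 7 and 8, and after chromosome centring they gave 6 and 7, and 8 and 2. Members of these 4 lists called on the spike-in scale were 9, 7, 8 and 7, all of them higher in LBRKO.

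Among genes of the naive state, 5 of 19 were higher in LBRKO and 2 higher in TKO (26.3% and 10.5%). These shares stand against 14.0% and 10.9% of all genes, and 20.84% and 19.13% of protein-coding genes. The counts were 5 and 5 with libraries divided by their mean, and 4 and 3 after chromosome centring. Tet2, a DNA demethylation gene, had 34.8, 37.2 and 32.8 in LBRKO and 16.7, 15.7 and 15.0 in TKO (1.14). Nr0b1, which encodes the orphan receptor DAX1, differed by 0.89, whereas the pluripotency factor genes Klf4 (−0.66) and Tbx3 (−0.54) were higher in TKO, of which Klf4 did not pass after centring (limma adjusted p = 0.132). Of 17 markers of the primed epiblast, 0 were higher in LBRKO and 2 in TKO (11.8%, near the 10.9% of all genes), Dnmt3b (−0.40), a de novo DNA methyltransferase gene, and Cdh2 (−0.24), the N-cadherin gene. Mesoderm and gastrulation genes gave 0 and 4 of 19 (21.1% higher in TKO, near the 19.13% of protein-coding genes), with Mesp2 (−0.85) and Tbx6 (−0.75). After chromosome centring they gave 0 and 2, and Tbx6 passed the test but Mesp2 did not (limma adjusted p = 0.0723). Endoderm regulators gave 3 and 3 of 17 (17.6% each), with Col4a1 (−0.52), a basement membrane collagen gene, among those higher in TKO. Of 19 Wnt ligand genes 4 were higher in LBRKO, all on chromosome 6, and 0 after chromosome centring. Wnt5b, at 0.53, was at −0.05 after centring, and 3 were higher in TKO before centring, 2 after it and 7 with libraries divided by their mean. In these 5 lists 0 members were higher in TKO on the spike-in scale.

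Very long neuronal genes gave 13 of 38 higher in LBRKO and 7 higher in TKO, and 22 of the 38 were in the top LMNB1 class. Rbfox1, a gene for a neuronal splicing factor, had 217, 214 and 221 in LBRKO and 295, 334 and 344 in TKO (−0.58), and it was in the lowest LMNB1 class. The counts of this list were 12 and 15 with libraries divided by their mean, 9 and 7 after chromosome centring and 13 and 0 on the spike-in scale. Which genotype leads thus depends on the scaling. Over all genes longer than 100 kb, 35.9% were higher in LBRKO and 20.7% in TKO, near the 34.2% and 18.4% of this list.

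Clustered gene families of sensory and immune function lie in lamina-associated domains in many cell types. Here they did not share a direction, and the UDP-glucuronosyltransferase and Pramel families, of other functions, are set beside them. Class I olfactory receptors, which detect odours, gave 26 of 152 higher in LBRKO (17.1%, against 14.0% of all genes) and 0 higher in TKO, with a median of 0.41. Of the 152, 146 were in the top LMNB1 class, where 22.5% of genes were higher in LBRKO. The UDP-glucuronosyltransferases, which conjugate drugs and steroids, gave 10 and 0 of 19 (52.6% higher in LBRKO, median 0.59). The Pramel genes, a reproduction-related family, gave 15 and 0 of 64 (23.4%, near the 20.84% of protein-coding genes, median 0.34). Of the UDP-glucuronosyltransferases 10 were in the top LMNB1 class and 8 in the lowest, and of the Pramel genes 14 and 14. With libraries divided by their mean, 15, 8 and 11 members of these 3 lists were higher in LBRKO. The medians of the 3 lists stayed above 0 with libraries divided by their mean (0.30, 0.46 and 0.23), after chromosome centring (0.48, 0.61 and 0.40) and on the spike-in scale (0.71, 0.89 and 0.61). Or52ad1, a class I receptor, had 1.58, 2.27 and 1.58 in LBRKO and 0.68, 0.79 and 0.71 in TKO (1.19). Pramel13 had 10.04, 10.8 and 9.67 against 3.89, 4.52 and 3.35 (1.36). Ugt2a1 had 11.4, 10.5 and 10.1 against 5.76, 4.50 and 5.52 (1.01). In each of these 3 genes the groups were well apart.

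Other such families stood elsewhere. The much larger set of class II olfactory receptors gave 127 and 40 of 1170 (10.9% and 3.42%), under the background in both directions, with a median of 0.06 that fell to −0.06 with division by the mean. Bitter taste receptors gave 13 and 0 of 34 (38.2%, median 0.63), but 32 of them lie on chromosome 6, where 40.7% of all genes were higher in LBRKO. After centring they gave 5 and 0 (median 0.20). Killer cell lectin-like receptors, all on chromosome 6, gave 15 and 0 of 31 (48.4%, beside the same 40.7%, median 0.53), and after centring 2 and 5 (median −0.01). Vomeronasal type 1 receptors, which detect pheromones, gave 15 and 24 of 148 (10.1% and 16.2%, against 14.0% and 10.9% of all genes). Their median was −0.23, or 0.05 on the spike-in scale. Of these 47 lie on chromosome 6, and after centring the counts were 0 and 24. They were 8 and 45 with libraries divided by their mean, and 19 and 1 on the spike-in scale. Type 2 receptors gave 26 and 26 of 113 (23.0% each, near the 20.84% and 19.13% of protein-coding genes). They gave 16 and 22 after centring, 16 and 39 with libraries divided by their mean, and 24 and 2 on the spike-in scale. Reads within these families can be shared among near-identical copies, so single members are uncertain.

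In the ribosomal, histone, protocadherin, serpin and Hox lists more members were higher in TKO than in LBRKO on the relative scale, and 0 were higher in TKO on the spike-in scale. Ribosomal protein genes gave 3 of 88 higher in LBRKO and 24 higher in TKO (27.3%, against 10.9% of all genes and 19.13% of protein-coding genes). Their median was −0.40, or −0.13 on the spike-in scale. After chromosome centring they gave 3 and 15 (median −0.32), and with libraries divided by their mean 3 and 32. Replication-dependent histone genes, of which 25 of 70 passed the filter on low values, gave 0 and 3 (12.0% higher in TKO, median −0.43, or −0.18 on the spike-in scale). The clustered protocadherins, neuronal adhesion genes, gave 0 and 17 of 58 (29.3%, median −0.27). The serpin A and B protease inhibitor genes gave 0 and 10 of 58 (17.2%, median −0.23) and the Hox genes 0 and 4 of 39 (10.3%, median −0.15). Where members of a cluster overlap, a read counts for each of them, so such counts are not of independent genes. The shares of the histone and Hox genes were near the 10.9% of all genes, and that of the serpin genes was under the 19.13% of protein-coding genes. The protocadherin, serpin and Hox lists had medians of 0.03, 0.06 and 0.14 on the spike-in scale. Of the Hox genes 11 lie on chromosome 6, and after chromosome centring the Hox list gave 0 and 6 (median −0.32). The remaining 6 lists follow, with counts higher in LBRKO and higher in TKO in that order. Mitochondrial ribosomal proteins gave 10 and 10 of 75 (13.3% each) and the Zfp900 to Zfp999 zinc fingers 6 and 6 of 42 (14.3% each), beside 14.0% and 10.9% of all genes. Proteasome subunits gave 8 and 7 of 38 (21.1% and 18.4%), near the 20.84% and 19.13% of protein-coding genes. Cytochromes P450 (4 and 9 of 107, 3.74% and 8.41%), defensins (0 and 3 of 84, 3.57% higher in TKO) and keratin-associated proteins (0 and 3 of 96, 3.1% higher in TKO) were under the shares of all genes. With libraries divided by their mean more members were higher in TKO in all 6 lists. After centring the cytochromes P450 gave 9 and 5 and the zinc fingers 11 and 3.

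**Figure D5:**
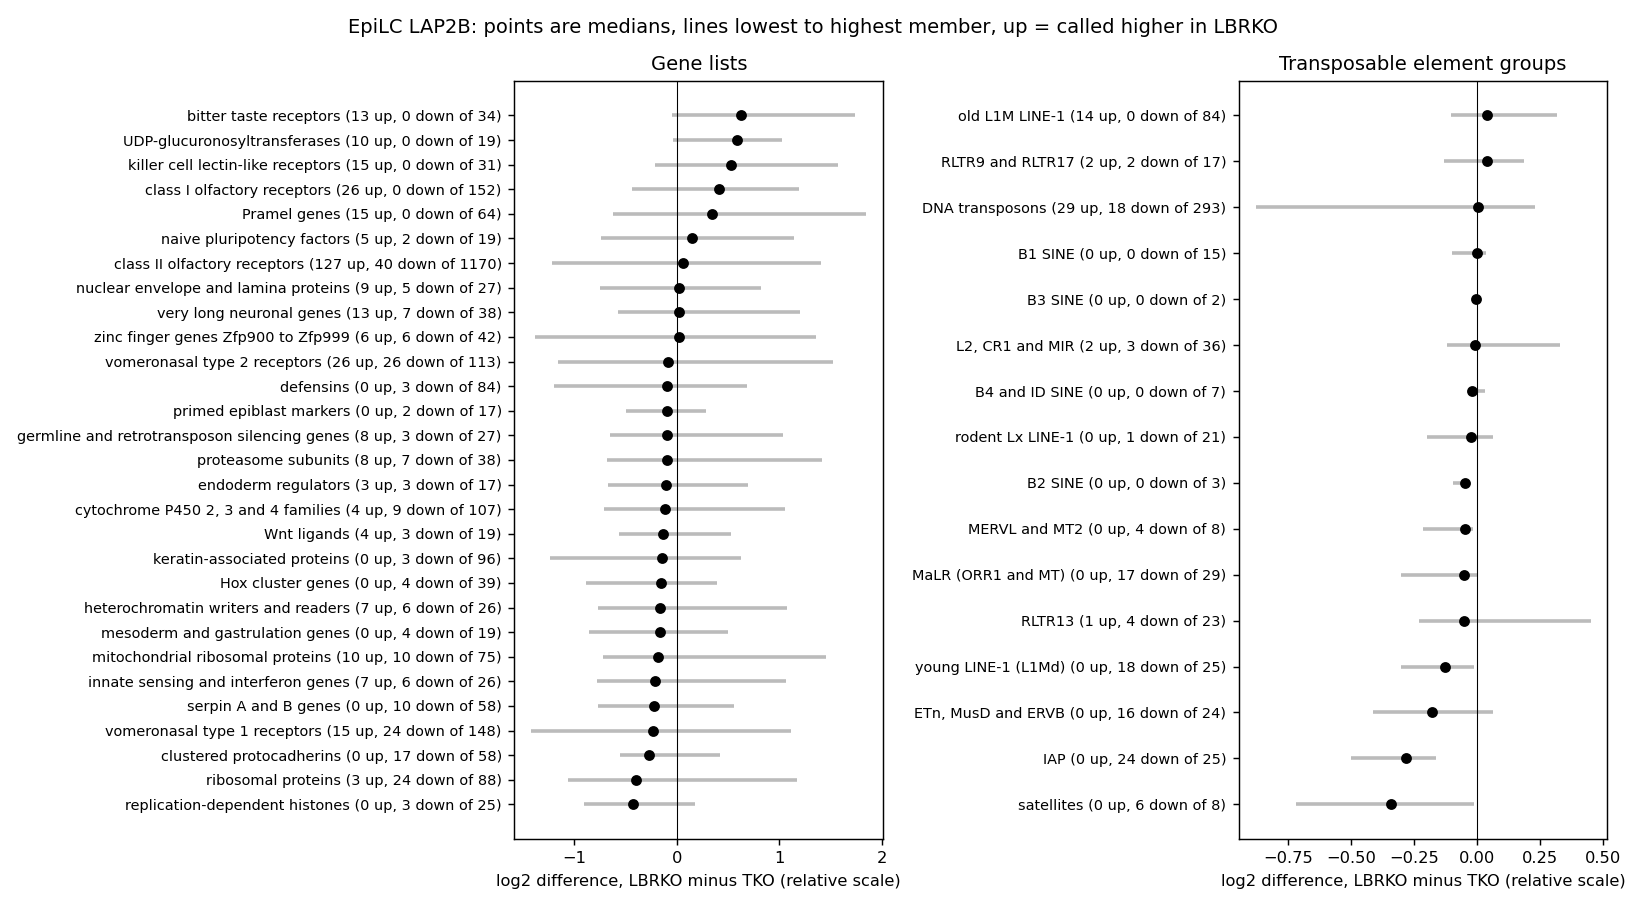
Median log2 difference, LBRKO minus TKO, on the relative scale (x axes; points), with lines from the lowest to the highest member, for the gene lists (left) and the groups of transposable element families (right). Counts of members called higher (up) or lower (down) in LBRKO stand beside each name, from 13 and 0 of 34 bitter taste receptors to 0 and 24 of 25 IAP families.

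Transposable elements (TEs) were tested as 1225 families on the mean over the copies of each. On the relative scale, where each library is divided by its median family, 298 families differed (24.3%, limma), 92 higher in LBRKO (7.51%) and 206 higher in TKO (16.8%). That split is set by the scaling. With division by the median gene, 432 families were higher in LBRKO and 39 in TKO, and the median family moved from −0.0093 to 0.12. On the spike-in scale 6 families were called (0.490%), all higher in LBRKO, while 578 had an unadjusted p under 0.05, around a median difference of 0.40. Without TKO replicate 1 the spike-in count was 1149, and on the relative scale the count fell to 175 without TKO replicate 1 and to 178 without LBRKO replicate 2. With the median over copies in place of the mean, 52 families were called on the relative scale, 5 higher in LBRKO and 47 in TKO. Family differences below are therefore differences from the other families of the same library.

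IAP elements, endogenous retroviruses that still transpose in the mouse, were higher in TKO in 24 of 25 families, with a median of −0.28. IAPEz-int (7601 copies) had 1.71, 1.72 and 1.84 in LBRKO and 2.66, 2.39 and 2.44 in TKO (log2 difference −0.48, SE 0.10, limma adjusted p = 0.0015). WT EpiLCs had 2.38 ± 0.281 and WT IGG 2.95 ± 0.461, so TKO stood with WT and LBRKO stood below both. With division by the median gene 13 of the 25 families were called and the median was −0.15, and on the spike-in scale it was 0.13. IAPLTR3-int (−0.50), IAPEY4_I (−0.49) and IAPEY5_I (−0.48) were among the largest differences of called families with at least 100 copies, with RLTR1D2_MM (−0.50), MMERGLN-int (−0.45) and RLTR6-int (−0.45). ETn, MusD and ERVB elements gave 0 and 16 of 24 (median −0.18), and 1 and 4 with division by the median gene (median −0.05).

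Satellites were higher in TKO in 6 of 8 families (median −0.34, or −0.22 with division by the median gene, where 4 were higher in TKO and 1 in LBRKO, and 0.02 on the spike-in scale). GSAT_MM, the major satellite of mouse pericentromeres, had 986, 986 and 1100 in LBRKO and 1796, 1513 and 1600 in TKO (−0.67, limma adjusted p = 0.0282), beside 2048 in WT IGG. FordPrefect, an old DNA transposon, gave the largest difference of the families with at least 100 copies (−0.88, with 1.74, 1.82 and 1.83 against 3.73, 3.42 and 3.05). The median over its 270 copies differed by −0.0054, and its WT IGG level was 6.68 ± 3.72 (SD, n = 3).

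Young LINE-1 (L1Md) families gave 0 and 18 of 25 (median −0.13), but the median was 0.0077 and 1 family was called with division by the median gene. L1MdA_I had 3.10, 3.07 and 3.06 in LBRKO and 3.86, 3.58 and 3.44 in TKO (−0.23, limma adjusted p = 0.0117). MaLR elements gave 0 and 17 of 29 (median −0.05), and 0 and 1 with division by the median gene (median 0.08). MERVL and MT2 elements, known for their activity in early embryos, gave 0 and 4 of 8 (median −0.05), with MERVL-int at −0.22, and 1 and 0 with division by the median gene (median 0.08). Old L1M LINE-1 families gave 14 and 0 of 84 (median 0.04), and B1, B2, B3 and B4 SINEs, which sit in gene-rich DNA, gave 0 called families on the relative scale. With division by the median gene, 56 of the 84 L1M families, 12 of 15 B1, 0 of 3 B2, 2 of 2 B3 and 4 of 7 B4 and ID families were higher in LBRKO.

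Among called families with at least 100 copies, the largest difference in favour of LBRKO was that of RLTR13F, an ERVK long terminal repeat with 117 copies, with 2.44, 2.47 and 2.54 in LBRKO and 1.87, 1.84 and 1.67 in TKO (0.45, limma adjusted p = 0.000688). It was 0.59 with division by the median gene and 0.88 on the spike-in scale (limma adjusted p = 0.0206 over all families). It did not pass there when only families with at least 100 copies were fitted. Its median over copies differed by −0.02, and only 1 of the 23 RLTR13 families was higher in LBRKO. MER21-int (0.23), RLTR9A2 (0.18), LTR41B (0.16), Tigger12c (0.15), RLTR31_Mm (0.15), RLTR9B (0.15) and Arthur1C (0.14) followed. RLTR9A2 also differed in its median over copies (0.22, limma adjusted p = 0.0171). The others that followed RLTR13F did not pass in that measure (0.05 to 0.20, limma adjusted p 0.0517 to 0.831). Across all 1225 families the rank correlation of the difference with WT LMNB1 was −0.116. Family values are means per copy without division by bins, and the family difference is relative to the median family. This correlation is thus not comparable with that across genes, which used LMNB1 per bin.

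The same contrast in naive mESCs, made from 6 other libraries of the same lines, was set beside that in EpiLCs. Across genes the rank correlation between the EpiLC and the naive difference was 0.553, and across TE families 0.524, as a description only, since both stages share the lines and their chromosomes. In naive mESCs the level differed by 1.02 (log2) in favour of LBRKO, against 0.44 in EpiLCs (difference of the differences −0.59, exact permutation p = 0.14 over 400 assignments, adjusted over 4 measures 0.187). The lamina contrast differed by 0.15 in naive mESCs and by 0.43 in EpiLCs (exact permutation p = 0.24, adjusted 0.24). The rank correlation with LMNB1 of the same stage differed by −0.024 in naive mESCs and 0.232 in EpiLCs (exact permutation p = 0.02, adjusted 0.04), and that with IGG by −0.064 and −0.234 (exact permutation p = 0.015, adjusted 0.04). The reference changes with stage, and WT LAP2B averaged 0.815 with LMNB1 in naive mESCs and 0.581 in EpiLCs. These tests shuffled stage labels within each genotype, so their null is no change with stage in either, not an equal change in both. In TKO cells the rank correlation with LMNB1 was 0.345, 0.174 and 0.350 in the naive libraries and 0.102 to 0.109 in EpiLCs, and in LBRKO cells 0.365, 0.190 and 0.243 and 0.316 to 0.353.

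Gene by gene, the difference changed with stage for 7606 genes on the relative scale (10.8%, limma interaction), 2989 towards LBRKO in EpiLCs (4.25%) and 4617 towards TKO (6.56%). The spike-in scale gave 6014 genes (8.54%), 36 towards LBRKO (0.0511%) and 5978 towards TKO (8.49%). Of the TE families 492 changed on the relative scale (40.2%), 349 towards LBRKO (28.5%) and 143 towards TKO (11.7%), and 1 on the spike-in scale, towards TKO (0.0816%). In naive mESCs alone 26280 genes differed on the relative scale (37.3%), 15146 higher in LBRKO (21.5%) and 11134 in TKO (15.8%), and 737 TE families (60.2%), 281 higher in LBRKO (22.9%) and 456 in TKO (37.2%). Dnmt3b, which was higher in TKO in EpiLCs (−0.40), differed by 0.87 in naive mESCs (stage difference −1.27, limma adjusted p = 2.17e-06). Tor1aip1 went from 1.70 in naive mESCs to 0.80 in EpiLCs (−0.90). Morc1 went from 0.04 to 0.89 (0.85, limma adjusted p = 4.45e-05). Of the class I olfactory receptors 20 of 152 changed with stage, beside 10.8% of all genes, and their median was −0.12 in naive mESCs and 0.41 in EpiLCs. The clustered protocadherins, with medians of −0.60 and −0.27, had 0 of 58 members with a called stage difference.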

How the data were processed

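LAP2B, LMNB1 and IGG CUT&RUN were measured in naive mESCs and EpiLCs, 36 libraries in all, and the remaining 2 samples were not used here. The authors' methods state that paired reads were mapped to GRCm39 with Bowtie2, that duplicates were removed, and that coverage signal was computed with deepTools as RPKM times a yeast spike-in factor. Their submission notes name Bowtie2 2.3.5.1 and SAMtools 1.10. The deposited gene and TE values are this signal. All gene values were whole multiples of 1 step per library (within 0.05 of a step, 100% of values), which gave reads per gene. For genes the deposited signal is read as a sum over 1 kb bins, since all 343 sets of genes within 1 shared bin had equal values. For TEs the methods state 10 kb bins, but the smallest steps of the deposited values match 1 kb bins, so the width is uncertain.

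From there, the lowest 0.1 of 78202 genes by mean value was left out (70382 tested), 0.1 of the table's median was added, and log2 values of all 24 LAP2B libraries were fitted with limma 3.58.1 in R 4.3.3 (8 group means, no replicate block, eBayes with trend). The log2 differences understate changes of low genes through the pseudocount. Tests were two-sided, the Benjamini-Hochberg adjustment ran over every tested gene or family, and calls were made at 0.05. Each TE family enters as the mean of its copies. Alternatives used edgeR 4.0.16 and DESeq2 1.42.0 on the recovered reads, other scalings, pseudocounts and filters, a replicate block, and each library left out in turn. The gene fits were also run on simulated data as a check of the code, and the outcome is not given here. Of the genes, 99.9% had coordinates in GENCODE M39. Named genes are the 10 largest differences in each direction among called protein-coding genes of at least 10 kb without overlap between groups, at most 2 per 5 Mb, the 6 largest in each direction after chromosome centring, the knocked-out genes and Tmpo, the leading members of each list, and the 8 largest called TE families in each direction with at least 100 copies. The windows named were chosen after their values were seen, as were the genes and families named beyond this rule. Some genes that the rule names are not reported here. Members and lists were chosen with earlier results of these data known. Intervals are not given, since the spread between replicates exceeded counting error.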

Additional observations from a re-analysis of the deposited data

Results flagged for a closer look

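The difference between LBRKO and TKO was tested for a change between EpiLCs and naive mESCs, and the following results passed that test. Spearman's rank correlation with LMNB1 of the same stage differed between the genotypes by 0.256 more in EpiLCs (exact permutation of stage labels within genotype, p = 0.02, adjusted over 4 measures 0.04), and that with IGG by −0.171 (p = 0.015 by the same exact test, adjusted 0.04). The LMNB1 and IGG references differ between stages, and the null of this exact test is no change with stage in either genotype. The naive TKO libraries span 0.174 to 0.350 in rank correlation with LMNB1, the EpiLC TKO libraries 0.102 to 0.109. On the relative scale 7606 genes and 492 TE families had a difference that changed with stage (limma interaction). The spike-in scale gave 6014 genes, 5978 of them towards TKO in EpiLCs, and 1 family.

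Among the named genes, the lead of LBRKO was larger in EpiLCs for Slco1b2 by 1.07 (0.76 in naive mESCs, 1.82 in EpiLCs), for Cr1l by 0.75 (0.99 and 1.74) and for Pde3b by 0.63 (1.01 and 1.65). Among the TE families named as higher in LBRKO, the stage difference was 0.34 for RLTR13F, 0.67 for RLTR9A2, 0.15 for RLTR31_Mm, 0.42 for RLTR9B and 0.13 for Arthur1C. RLTR9A2 and RLTR9B were higher in TKO in naive mESCs (−0.49 and −0.28). Among those named as higher in TKO it was 0.99 for FordPrefect, 0.25 for IAPEY4_I, 0.43 for IAPEY5_I and 0.33 for RLTR6-int, all of which were further towards TKO in naive mESCs (−1.86, −0.73, −0.92 and −0.78).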

How the results depend on the processing

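On the spike-in scale the count of 10934 genes was 6742 among genes of at least 10 kb and 22851 when reads rather than RPKM were multiplied by the spike-in factor, and it ranged from 5144 to 18628 when each library was left out. On the relative scale the count of 17506 was 19928 with division by the mean, where the lead passed to TKO, 23004 with DESeq2, 17950 with edgeR, and 12861 to 14950 when each library was left out. Chromosome centring gave 14571, and leaving out chromosomes 6, 8, X and Y, an alternative chosen after seeing the data, gave 14146. The count of 298 TE families was 471 with division by the median gene, where the lead passed to LBRKO, 52 with the median over copies, 392 with only the 6 libraries, and 175 to 238 when each library was left out. The count of 6 families on the spike-in scale fell to 0 when limma was fitted and adjusted again over only the families with at least 100 copies. All families gave 578 at an unadjusted p under 0.05. The count was 2 with only the 6 libraries, and 1 to 1149 when each library was left out. The level difference of 0.44 was 0.084 over TE families and 0.63 when the factor multiplied reads. The lamina contrast gap ranged from 0.22 to 0.66.

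For the 29 genes named by size, by knockout or as Tmpo, 502 of 513 values from alternatives on the relative scale kept their direction and their side of the threshold. On the spike-in scale 6 of the 10 first named as higher in TKO, and Lmnb2, did not pass. Leading list members were run only with chromosome centring and on the spike-in scale. The difference over Lbr, −0.07, ranged from −0.16 to 0.013 when each library was left out, and was 0.013 without LBRKO replicate 1 (limma adjusted p = 0.965). Lmna passed the test with only the 6 libraries (limma adjusted p = 0.03) or the 12 EpiLC libraries (limma adjusted p = 0.0499). The other 8 values concern Lmnb2 and Or5bh3. The cause was not tested in any of these.

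The replicate numbers do not pair the samples: the deviations of same-numbered libraries correlated at −0.0059, −0.0095 and −0.026. With the number as a replicate block, 17433 genes and 288 families were called on the relative scale, 9858 genes and 4 families on the spike-in scale, and 7501 genes for the stage difference. Exact tests of 3 libraries against 3 cannot go below 0.1, and the fewest reads lie over short genes.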
